A study of Mus musculus with 12 samples.

Results

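The medial prefrontal cortex (mPFC) of uninjured mice was described from 4 RNA sequencing libraries, called naive 1 to naive 4 here. They were chosen by their label alone and are 4 of the 12 libraries of the study. The remaining libraries come from mice with a constricted sciatic nerve and were not used. The naive mice were wild type and received no treatment, and their tissue is labelled day 28 of habituation. The series' text describes the mice as male. Neither the age of the mice nor the hemisphere is given, and nothing states whether a library holds tissue of 1 mouse or of several. Spreads between libraries may therefore be biological or technical.

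The mPFC is a frontal cortical area with layers of glutamatergic pyramidal neurons, GABA-releasing interneurons of several subclasses, and glia and blood vessels between them. It is known for its part in attention, decisions, social behaviour and the affective side of pain. Its neurons are told apart by the paralogs they use: most transmitter receptors, ion channels and vesicle proteins come in families of related genes, of which a given region favours a few. Immediate early genes are a further group of interest here, since neuronal activity switches them on within minutes and their level in a tissue sample reflects the time just before death.

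Levels are given in FPKM, sequenced fragments scaled by the length of the gene and the size of the library. Values between libraries are given in CPM, counts scaled by library size alone, with TMM factors, which needs no gene length. Errors are standard deviations (SD, n = 4). Comparisons were by description alone: a difference between genes was called where the ranges over the 4 libraries did not overlap, and no test was made. In bulk tissue, fewer cells of a type and less RNA per cell cannot be told apart.

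Total counts were 16763173 to 17823538 per library. Between 12165 and 12291 genes reached 1 FPKM in a library. Across genes with a mean count of at least 100, the log2 CPM of any pair of libraries had a Pearson correlation between 0.983 and 0.986, a description across genes that are not independent replicates. The labelled sex and tissue were checked against defining genes. The Y-linked gene Ddx3y (a helicase) stood at 5.67 ± 0.879 FPKM, and Xist, the RNA that silences an X chromosome in female cells, had counts of 2, 1, 0 and 0. None of the 39 Hox genes, which mark hindbrain and spinal cord, reached 1 FPKM, and 34 of them had no count. Ttr, the defining gene of choroid plexus, stood between 0.433 and 0.726 FPKM.

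FPKM depends on the length assigned to a gene, and this bears on every order between genes below. The length implied by the deposited values was the same in all 4 libraries. For 68.0% of genes at 1 FPKM or more it lay within 1 percent of the summed length of all distinct exons of GENCODE M21, where overlapping exons count more than once. For Actb it came to 5902 bases, more than the 3640 bases of the locus itself. For Fth1 it came to 866 bases, against 3469 bases when overlapping exons are merged. Levels were therefore also computed with merged exon lengths, a choice made after the data were seen, and an order between genes that turns with it is named as such.

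The most abundant transcripts came from the mitochondrial genome. Its 13 protein-coding genes took 7.67 ± 0.544% of the counts, from 6.95% in naive 3 to 8.25% in naive 2. The gene mt-Co1, which encodes the catalytic subunit of cytochrome c oxidase, stood highest at 15475 ± 849.7 FPKM. It was followed by the ATP synthase genes mt-Atp8 (11408 ± 956.3 FPKM) and mt-Atp6 (9746 ± 1410.5 FPKM) and by the oxidase subunits mt-Co2 (9683 ± 658.8 FPKM) and mt-Co3 (8389 ± 554.5 FPKM). All 5 were lowest in naive 3 and highest in naive 2. The mt-Atp8 and mt-Atp6 reading frames overlap on 1 transcript, so reads between them are not cleanly divided. These 13 genes did not share 1 level: mt-Nd6, the only one encoded on the other strand, stood between 37.7 and 55.02 FPKM. Whether counting used strand is not given in the sources used here, and without strand reads of mt-Nd6 cannot be told from those of overlapping transcripts.

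Of the 34745 genes in the table, 12232 had a mean of at least 1 FPKM (35.2% of all), 4057 reached 10 FPKM and 265 reached 100 FPKM. A total of 13215 genes had no count in any naive library. Protein-coding genes held 97.5% of the counts, and long intergenic noncoding RNAs held 0.942%. The counts were concentrated in few genes: 959 genes held 50% of them. The 100 most counted genes of each library held 20.1 ± 0.500% of its counts.

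The 20 nuclear genes of highest mean FPKM, ribosomal proteins apart, are given by what they encode. A first set was made of predicted genes that are nuclear copies of mitochondrial sequence: Gm10925 at 1839 ± 146.8 FPKM, Gm28661 at 1402 ± 106.0 FPKM, Gm28437 at 1393 ± 103.9 FPKM, Gm29216 at 1253 ± 63.9 FPKM, Gm10222 at 905 ± 79.0 FPKM and Gm28439 at 648 ± 45.8 FPKM. All 6 were lowest in naive 3 and highest in naive 2, as were 11 of the 13 mitochondrial genes, mt-Nd3 (lowest in naive 4) and mt-Nd6 (highest in naive 1) being the exceptions. Together they took 0.474 ± 0.0342% of the counts. Their sequence is near-identical to that of mitochondrial genes, so which of the copies gave these reads is uncertain.

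Several others serve signalling, secretion and transport in neurons or astrocytes. Slc17a7 encodes VGLUT1, which loads glutamate into synaptic vesicles, and stood at 641, 624, 630 and 637 FPKM in naive 1 to 4. Nrgn (neurogranin, which binds calmodulin at the postsynapse) stood at 525.5 ± 24.4 FPKM and Calm2, a calmodulin gene, at 591 ± 18.6 FPKM. Kif5a, a kinesin motor of axonal transport, stood at 691 ± 48.5 FPKM, and Cpe, the carboxypeptidase that trims neuropeptide precursors, at 965 ± 27.5 FPKM. App (the amyloid precursor) stood at 630 ± 29.0 FPKM and its relative Aplp1 at 562 ± 5.34 FPKM. Sparcl1, a matrix protein that astrocytes secrete, stood at 530 ± 4.12 FPKM and varied least of all 20 in proportion to its mean.

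The remaining genes serve energy metabolism or functions common to most cells. Ckb (brain creatine kinase) stood at 610 ± 17.2 FPKM, the glycolytic enzyme gene Pkm at 515 ± 20.1 FPKM and Cox8a, a nuclear-encoded subunit of cytochrome c oxidase, at 496 ± 35.9 FPKM. Fth1, the heavy chain of the iron store ferritin, stood at 1363 ± 121.2 FPKM, Cfl1 (cofilin, which severs actin filaments) at 655 ± 16.7 FPKM and Eef1a2, the neuronal form of translation elongation factor 1A, at 519 ± 14.5 FPKM. On merged exon length Cpe stood at rank 7 (772 FPKM), and Calm2 moved from rank 14 to rank 5 (927 FPKM). Other genes left the 20 highest: Aplp1 moved to rank 22, Cox8a to rank 23, Slc17a7 to rank 36 (345 FPKM), Fth1 to rank 37 (340.2 FPKM), Ckb to rank 44, Pkm to rank 62, Cfl1 to rank 64 and App to rank 166 (152 FPKM). The place of these genes among the 20 highest thus rests on the deposited lengths.

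Among gene families read from symbols, the share at 1 FPKM or more differed widely from the 35.2% over all genes. All of the 13 mitochondrially encoded genes passed, 81 of 85 nuclear subunits of the respiratory chain, 74 of 82 cytosolic ribosomal proteins, 45 of 59 Rab GTPases (which steer vesicle traffic), 44 of 58 clustered protocadherins (cell surface identity molecules of neurons) and 283 of 380 genes named Zfp. Of 99 potassium channel genes 67 passed, and of 348 solute carriers 191 passed. At the other end stood chemosensory receptors: 1 of 1298 olfactory receptor genes (Olfr316, at 2.13 FPKM) and none of 333 vomeronasal receptor genes passed, and 1232 and 321 of them had no count. None of 43 beta-defensins, 5 of 47 keratins and 3 of 390 immunoglobulin segments passed.

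The cytosolic ribosomal proteins took only 0.463 ± 0.0231% of the counts, less than the nuclear respiratory chain subunits with 0.776 ± 0.0268%. Rplp1 led them at 370 ± 32.7 FPKM, followed by Rpl8 at 267 ± 13.2 FPKM, Rpl4 at 261 ± 4.08 FPKM, Rps15 at 255 ± 21.4 FPKM and Rpl13a at 196 ± 10.4 FPKM. Ribosomal protein genes have many processed copies in the genome, and reads that match several places may have been left out or given to a copy, so these levels are uncertain. Some other genes with processed copies, chosen after their values were seen, are given beside them. Tpt1, a growth-related protein gene with processed copies, stood at 5.64 ± 0.281 FPKM, and its intronless copy Tpt1-ps3 at 379 ± 2.45 FPKM. Gapdh stood at 24.2 ± 1.55 FPKM and Ppia at 2.87 ± 0.353 FPKM. On merged exon length Tpt1 came to 11.5 FPKM, Gapdh to 50.5 FPKM and Ppia to 4.12 FPKM. How the authors' counting treated reads that match several copies, and its part in these levels, was not tested.

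Relative levels within families were examined in 65 sets of paralogs. In 57 of them the same gene led in all 4 libraries, and in 51 the leader's range lay wholly above that of the next gene. In 36 sets the leader held over 50% of the summed FPKM of its family, and in 30 it did so on merged exon length as well. The leader was the same on merged exon length in 55 sets, and the same by counts with no length in 48. It was the same on all of these scales in 40. By counts with no length, Gria2 stood above Gria1, Rab3c above Rab3a and Cacna1e above Cacna1a, among others. The genes are described by their role, with the deposited FPKM unless stated. The plot of paralog levels shows 12 of these families.

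**Figure D1:**
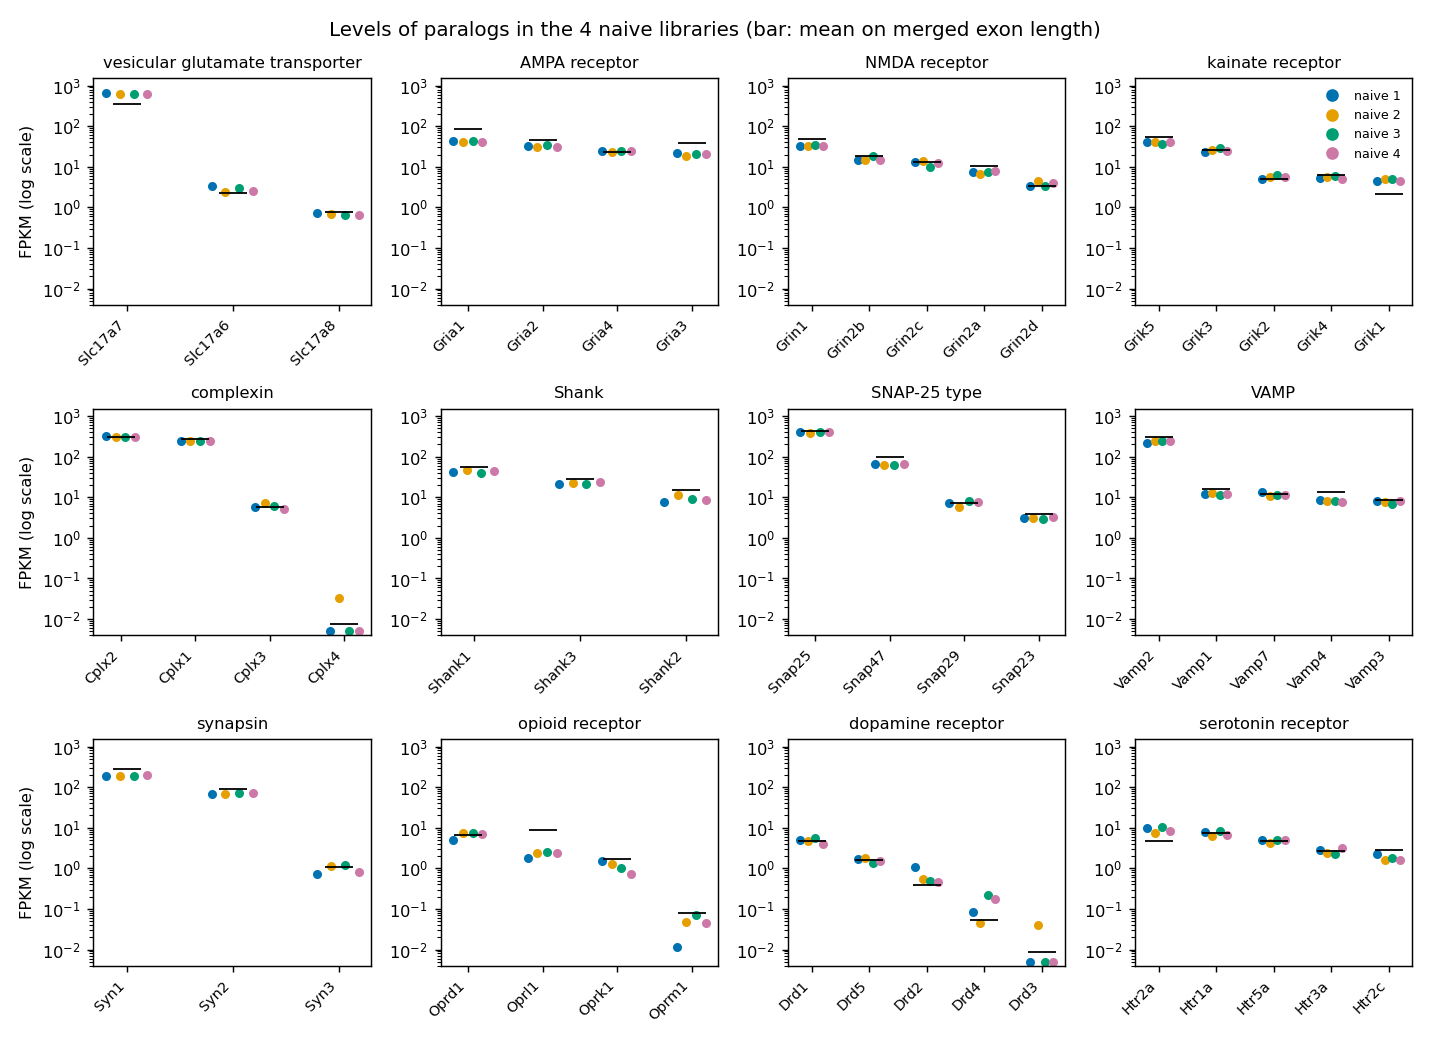
FPKM (vertical axis, log scale) of the up to 5 highest members of 12 gene families (horizontal axis) in the 4 naive libraries (coloured points), with values of 0 drawn at the floor of the plot. The black horizontal bar is the mean on merged exon length. Slc17a7 stood 224 times above Slc17a6, while the 4 AMPA receptor genes lay within 2.07 times of each other.

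Vesicle loading and release came first. Slc17a7 held 99.45% of the summed FPKM of the 3 vesicular glutamate transporters. Slc17a6 (VGLUT2, used by thalamic and other subcortical neurons) stood at 2.82 ± 0.422 FPKM and Slc17a8 (VGLUT3) at 0.678 ± 0.0374 FPKM. The membrane fusion complex was similarly dominated by single genes: Snap25 stood at 402 ± 7.61 FPKM against 64.5 ± 2.28 FPKM for Snap47, and Vamp2 at 234 ± 10.3 FPKM against 12.1 ± 0.551 FPKM for Vamp1. Syt1, the calcium sensor of fast release, led 13 synaptotagmins at 136 ± 6.34 FPKM. Syt7 and Syt13 followed at 83.3 ± 3.06 and 81.0 ± 2.63 FPKM and overlapped with each other. Their means change places on merged exon length. Syn1 (synapsin, which tethers vesicles) stood at 189 ± 5.56 FPKM, Syn2 at 69.1 ± 2.37 FPKM and Syn3 at 0.985 ± 0.247 FPKM.

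The complexins, which clamp and trigger fusion, had a pair of high members, Cplx2 at 306 ± 7.16 FPKM and Cplx1 at 242 ± 1.92 FPKM. Cplx3 stood at 6.04 ± 0.960 FPKM and Cplx4, known from the retina, at or near 0. Sv2a, the vesicle glycoprotein that binds levetiracetam, stood at 118 ± 3.06 FPKM, above Sv2b at 41.1 ± 4.14 FPKM and Sv2c at 3.18 ± 0.171 FPKM. Rab3a led the Rab3 GTPases at 91.8 ± 4.27 FPKM, ahead of Rab3c at 56.7 ± 4.74 FPKM. Stx1a, a syntaxin of the presynaptic membrane, stood at 78.1 ± 3.41 FPKM.

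Glutamate receptors carry the excitatory signal. Of the AMPA receptor subunits, Gria1 stood at 42.5 ± 1.92 FPKM, Gria2, whose edited subunit blocks calcium entry, at 32.2 ± 2.06 FPKM and Gria4 at 23.9 ± 0.358 FPKM, with no overlap between neighbours. Of the NMDA receptor subunits, the obligatory Grin1 stood at 33.0 ± 1.02 FPKM, Grin2b at 15.6 ± 1.70 FPKM and Grin2c at 12.3 ± 1.57 FPKM, again apart. Grin3b stood at 0.0261 ± 0.0148 FPKM. The kainate receptors were led by Grik5 (40.2 ± 2.35 FPKM) and Grik3 (25.7 ± 1.97 FPKM). Among metabotropic receptors, Grm3 (18.8 ± 0.324 FPKM) and Grm5 (17.3 ± 1.43 FPKM) overlapped, and Grm2 followed at 11.1 ± 0.677 FPKM. Grm6, the receptor of retinal ON bipolar cells, had a value above 0 in a single library.

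The postsynaptic density behind these receptors had its own leading genes. Dlg4 (PSD-95, the main scaffold) stood at 118 ± 3.42 FPKM, above Dlg2 at 21.4 ± 1.92 FPKM, and on merged exon length still at 60.5 FPKM against 18.4 FPKM. Shank1 stood at 43.4 ± 2.63 FPKM, Shank3 at 21.8 ± 1.25 FPKM and Shank2 at 9.11 ± 1.43 FPKM. The adhesion gene Nlgn2, whose protein sits at inhibitory synapses, exceeded Nlgn3 by 42.6 ± 1.58 to 12.4 ± 0.207 FPKM. Its presynaptic partners Nrxn2 and Nrxn3 stood at 14.5 ± 1.13 and 9.67 ± 1.10 FPKM.

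Inhibition was described from the receptor, the enzyme and the transporters. Gabra3, an alpha subunit of GABA-A receptors, stood at 43.2 ± 2.09 FPKM. Gabra6, the subunit of cerebellar granule cells, had no count. The beta subunit gene Gabrb2 stood at 14.6, 16.5, 23.8 and 16.7 FPKM and was highest in naive 3. Gabrd, whose subunit forms extrasynaptic receptors, stood at 19.5 ± 0.997 FPKM. Gad1, the main GABA-synthesising enzyme gene, stood at 36.8, 35.1, 34.1 and 34.3 FPKM and lay above Gad2 at 28.5, 30.2, 28.0 and 27.9 FPKM in every library. The astrocytic GABA transporter gene Slc6a11 stood at 36.4 ± 1.35 FPKM. Slc12a5 (KCC2, which keeps neuronal chloride low) exceeded Slc12a2 (NKCC1, which raises it) by 40.2 ± 3.08 to 10.7 ± 1.08 FPKM.

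Voltage-gated channels shape the spike. Scn4b, an auxiliary sodium channel subunit, stood at 28.4 ± 2.10 FPKM. Of the pore-forming subunits Scn2a1 stood at 17.4, 13.4, 18.3 and 20.01 FPKM and Scn8a at 10.4, 13.4, 14.2 and 12.7 FPKM. Their order turned on merged exon length (21.9 against 24.7 FPKM), so neither can be placed first. Scn4a of muscle and Scn11a of sensory neurons stood below 0.1 FPKM. Hcn2, a pacemaker channel, stood at 35.1 ± 1.36 FPKM. Cacna1a (the P/Q-type pore) led the calcium channels at 15.1 ± 0.947 FPKM, followed by Cacna1i at 12.2 ± 0.665 FPKM and Cacna1e at 11.8 ± 0.869 FPKM, which overlapped. Of the Kv3 genes of fast-spiking cells, Kcnc4 stood at 28.5 ± 1.32 FPKM and Kcnc2 at 22.1 ± 0.965 FPKM. Kcnq3, which carries the M-current, stood at 12.3 ± 0.810 FPKM, above Kcnq5 on the deposited length (8.63 ± 0.227 FPKM) and below it on merged exon length.

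Monoamine and acetylcholine receptors receive the modulatory inputs of the cortex. Htr2a, the serotonin receptor of layer 5 pyramidal cells, stood at 9.06 ± 1.29 FPKM, Htr1a at 7.33 ± 0.903 FPKM and Htr5a at 4.83 ± 0.378 FPKM. Htr2a and Htr1a overlapped and changed places on merged exon length. The dopamine receptor genes were ordered with no overlap: Drd1 at 4.89 ± 0.687 FPKM, Drd5 at 1.60 ± 0.204 FPKM, and Drd2 at 1.05, 0.533, 0.501 and 0.454 FPKM. Drd3 had a count in a single library. Adra1d, an alpha-1 adrenergic receptor gene, stood at 14.6 ± 1.54 FPKM and Adrb1 at 11.4 ± 1.72 FPKM, and the ranges overlapped. Among muscarinic receptors, Chrm1 (15.5 ± 0.641 FPKM) and Chrm4 (12.3, 13.5, 15.1 and 18.2 FPKM) overlapped. Chrna4 and Chrnb2, which together form the main high-affinity nicotinic receptor of the brain, led their family at 13.4 ± 1.07 and 8.53 ± 0.154 FPKM.

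The opioid receptors bind enkephalins, dynorphins and endorphins, and they are named here with their ligands. Oprd1 (delta) stood at 5.05, 7.28, 7.39 and 6.998 FPKM, Oprl1 (nociceptin receptor) at 1.85, 2.34, 2.54 and 2.43 FPKM and Oprk1 (kappa) at 1.49, 1.29, 1.03 and 0.741 FPKM. Oprd1 and Oprl1 changed places on merged exon length (6.68 against 8.84 FPKM). Oprm1, the mu receptor through which morphine acts, had counts of only 3, 12, 17 and 11, a mean of 0.0434 FPKM. Its length in the table is long, but on merged exon length its mean was still only 0.0789 FPKM. The ligand gene Penk stood at 19.1 ± 1.36 FPKM and Pdyn at 7.08 ± 0.297 FPKM. The cannabinoid receptor gene Cnr1 stood at 17.8 ± 0.576 FPKM and Cnr2, the receptor of immune cells, at 0.0479 ± 0.0427 FPKM.

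Neuropeptide precursors spanned a wide range. Of 23 genes, 16 reached 1 FPKM, against 35.2% of all genes. Cck (cholecystokinin) stood at 405 ± 19.8 FPKM and Sst (somatostatin) at 375 ± 25.4 FPKM. Cck was the higher in every library, but the ranges overlapped and the order turned on merged exon length (213 against 311 FPKM). Npy followed at 88.3 ± 8.79 FPKM. The hypothalamic or related peptide genes Agrp, Hcrt, Gal, Oxt and Avp stood below 0.1 FPKM, and Oxt and Avp had no count. Among growth factor genes, Ntrk2, the receptor for brain-derived neurotrophic factor, stood at 49.4 ± 2.46 FPKM, Ntrk3 at 5.16 ± 0.400 FPKM and the factor itself, Bdnf, at 2.84, 3.16, 3.57 and 3.76 FPKM.

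Pumps, enzymes, calcium signalling and the cytoskeleton were described next. Atp1b1 held 84.3% of the FPKM of sodium pump beta subunits. Calm2 and Calm3, which encode 1 identical protein, stood at 591 ± 18.6 and 428 ± 20.5 FPKM. Camk2a, the kinase they activate at synapses, stood at 242 ± 11.3 FPKM. Tubb4a led the beta tubulins at 404 ± 5.61 FPKM, above Tubb2a at 246 ± 15.7 FPKM. Among alpha tubulins Tuba1a (278, 183, 259 and 228 FPKM) and Tuba1b (198, 173, 175 and 184 FPKM) overlapped. Hk1 held 96.9% of the hexokinase FPKM and Ckb 95.8% of the creatine kinase FPKM. Ldhb exceeded Ldha, the form favoured in glycolytic cells, by 200 ± 5.05 to 72.7 ± 3.12 FPKM.

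Other regulators followed. Gnai1 (74.1 ± 2.24 FPKM) lay above Gnao1 (64.0 ± 1.45 FPKM) among G protein alpha subunits on both lengths, but by counts alone Gnao1 was the higher. Hdac11, the sole class IV histone deacetylase, stood at 43.8 ± 0.504 FPKM, well above Hdac2 at 13.2 ± 0.501 FPKM. The maintenance DNA methyltransferase gene Dnmt1 stood at 13.5 ± 0.0814 FPKM. The order of App and Aplp1, of Atp2b1 and Atp2b2 and of Ywhab and Ywhag turned on merged exon length, so no leader is named for the amyloid precursor, plasma membrane calcium pump and 14-3-3 families.

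Cell type genes were described from 18 marker lists. The highest medians belonged to astrocyte and excitatory neuron markers and the lowest to choroid plexus and hindbrain markers. On merged exon length the median of the astrocyte genes' means fell from 40.7 to 20.4 FPKM. This lay below the same medians of excitatory neurons (29.3 FPKM) and oligodendrocytes (23.97 FPKM), so the first place turns with the length used. Being taken over gene means, the 40.7 FPKM lay above the astrocyte median of every single library (23.8 to 39.6 FPKM). Slc1a2, high in naive 3 alone, is among these genes. Single marker lists differ in how abundant their genes are within their own cells, so a median says nothing of cell numbers. The plot of marker lists by library gives each median.

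**Figure D2:**
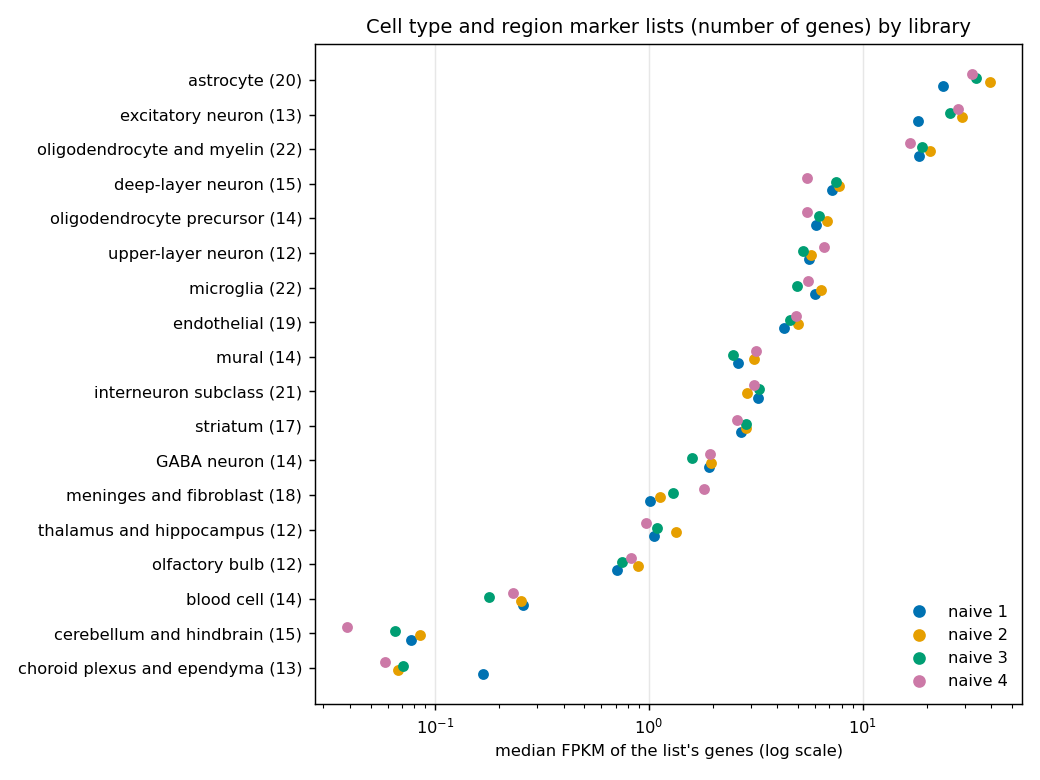
Median FPKM (horizontal axis, log scale) of 18 marker lists (vertical axis, with the number of genes) in the 4 naive libraries (coloured points). The choroid plexus list lay between 0.0583 and 0.167 FPKM and the astrocyte list between 23.8 and 39.6 FPKM.

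Excitatory neurons were represented by Slc17a7, Nrgn and Camk2a, and 12 of 13 markers reached 1 FPKM, against 35.2% of all genes. Their list median was 18.2 FPKM in naive 1 and 25.5 to 29.0 FPKM in the others, while their summed CPM differed by only 1.04 times between libraries. Markers of both upper and deep layers were present. Lamp5 (24.5 ± 2.70 FPKM), Calb1 (20.4 ± 1.24 FPKM) and Wfs1 (13.6 ± 0.908 FPKM) led the upper-layer list, in which all 12 genes passed 1 FPKM. Pcp4, a calmodulin-binding protein of layers 5 and 6, stood at 269 ± 18.3 FPKM, Crym at 29.1 ± 2.43 FPKM and Fezf2, the transcription factor that specifies subcortical projection neurons, at 21.7 ± 1.44 FPKM. Of 15 deep-layer genes, 14 passed.

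Other interneuron genes, Cck apart, stood below Sst. Pvalb, the calcium buffer of fast-spiking cells, stood at 18.9, 21.3, 18.4 and 19.3 FPKM and Vip, the peptide of disinhibitory cells, at 22.8, 19.8, 21.1 and 22.3 FPKM. These ranges overlapped, and on merged exon length Vip came to 9.65 FPKM. The vesicular GABA transporter gene Slc32a1 stood at 30.6 ± 1.03 FPKM. Of 14 general GABA neuron genes 13 passed 1 FPKM, against 35.2% of all genes.

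Glia followed. In astrocytes Glul (glutamine synthetase) stood at 362 ± 19.6 FPKM and the glycolytic enzyme gene Aldoc at 110 ± 10.1 FPKM. The filament gene Gfap, low in resting cortical astrocytes, stood at 11.2, 13.7, 11.6 and 10.6 FPKM. Oligodendrocytes were represented by Mobp (90.4, 114, 97.6 and 76.9 FPKM) and Mal (58.0 ± 7.67 FPKM), and Mbp stood at 33.3 ± 2.95 FPKM. Of the precursor genes, Bcan stood at 39.6 ± 0.665 FPKM, Olig1 at 37.2 ± 2.37 FPKM and Cspg5 at 25.1 ± 0.567 FPKM. In microglia the complement genes C1qa and C1qb stood at 33.8 ± 4.52 and 33.5 ± 4.08 FPKM. The microglial marker Aif1 stood at 1.61, 1.42, 0.931 and 1.17 FPKM.

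Vessels and surrounding tissue came next. Bsg (67.3 ± 6.95 FPKM), Itm2a (28.8 ± 2.77 FPKM) and the tight junction gene Cldn5 (24.0 ± 3.09 FPKM) led the endothelial list. Among mural genes the pericyte marker Rgs5 was even, at 22.7, 22.6, 22.8 and 22.9 FPKM, while the smooth muscle actin gene Acta2 stood at 5.73, 6.26, 6.498 and 10.9 FPKM. The meningeal list was led by Igfbp2 at 6.66 ± 0.553 FPKM. The haemoglobin genes Hbb-bs (15.6 ± 2.94 FPKM) and Hba-a1 (8.65 ± 1.85 FPKM) were both lowest in naive 3. Of 14 blood genes 5 passed 1 FPKM, near the share over all genes (35.2%). Of 13 choroid plexus and ependyma genes, only Foxj1 passed, at 1.34 ± 0.265 FPKM. Of 15 cerebellum and hindbrain genes 5 passed, also near that share, among them Calb1, which cortex also uses, and 5 had no count. Of 17 striatal genes 12 passed, led by Penk, Ppp1r1b and Rasd2 at 19.1 to 16.1 FPKM, which cortical neurons also express.

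Variation between the naive libraries was then measured on CPM for the 11463 genes with a mean count of at least 100. The median coefficient of variation (CV) was 6.91%. With the counting part taken off the squared CV of each gene, the median was 5.22%. The median ratio of the highest to the lowest library was 1.17. This ratio reached 1.5 in 888 genes and 2 in 322 genes (2.81% of all measured). Of those 322, naive 1 was the lowest library in 142, naive 4 in 73, naive 2 in 57 and naive 3 in 50. Naive 3 was the highest in 104, naive 4 in 91, naive 2 in 76 and naive 1 in 51. In 65 genes a single library stood high and the other 3 lay within 1.5 times of each other, and in 113 a single library stood low in the same sense. The count of 322 fell to 212 without naive 1. The plot of variation shows where named genes lie.

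**Figure D3:**
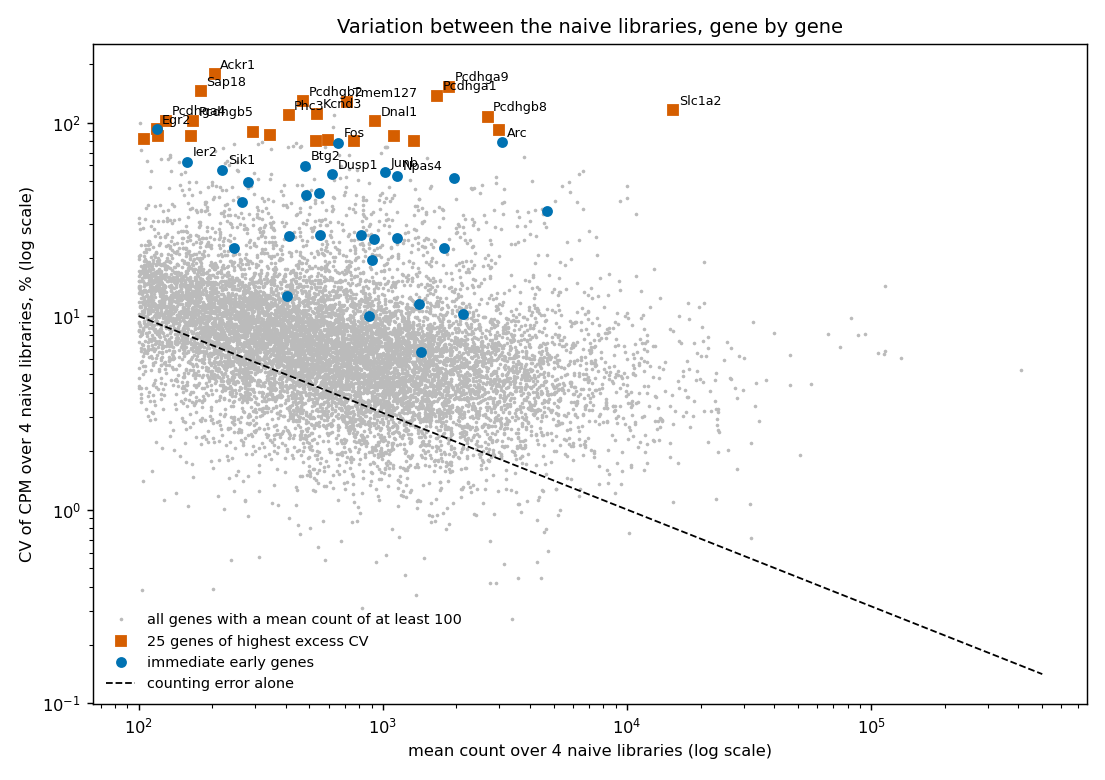
CV of CPM over the 4 naive libraries (vertical axis, %, log scale) against the mean count (horizontal axis, log scale) for 11463 genes. Orange squares are the 25 genes of highest CV beyond counting error, predicted models left out, blue points are immediate early genes, and the dashed line is counting error alone. Most immediate early genes lie above the grey mass, whose median is 6.91%.

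Immediate early genes stood out among the lists. Of 33 members, 28 had a mean count of at least 100, and 15 of these varied at least 2-fold, against 2.81% of all genes. Their median ratio of highest to lowest library was 2.22, against 1.17 over all genes. Naive 1 was the lowest and naive 4 the highest library in 20 of 28 members, against 7.84% of all genes. The median of naive 4 over naive 1 was 1.84 in these 28 genes and 1.00 over all genes. The plot of immediate early genes by library shows all 28.

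**Figure D4:**
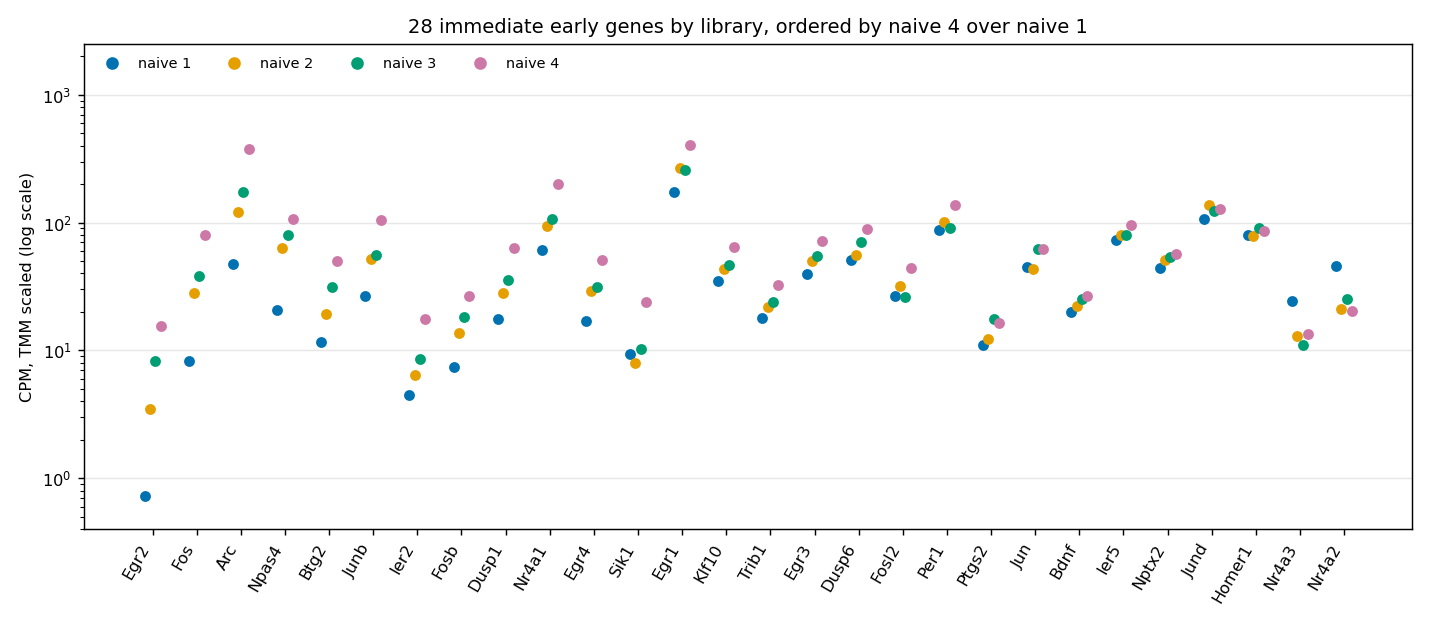
CPM with TMM scaling (vertical axis, log scale) of 28 immediate early genes (horizontal axis, ordered by naive 4 over naive 1) in the 4 naive libraries (coloured points). Egr2 differed by 21.3 times and Fos by 9.66 times between naive 1 and naive 4, while Nr4a2 and Nr4a3 at the right end were highest in naive 1.

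The genes of activity-dependent transcription led. Fos (ENSMUSG00000021250, chromosome 12, 85473890 to 85477273, GRCm38/mm10), a subunit of the AP-1 factor, stood at 2.20, 7.36, 9.97 and 21.1 FPKM in naive 1 to 4, from counts of 149, 473, 634 and 1367. The lowest and highest library differed by 9.66 times in CPM. Arc (ENSMUSG00000022602, chromosome 15, 74669083 to 74672570), whose protein removes AMPA receptors from synapses, stood at 9.24, 23.2, 33.1 and 73.0 FPKM, a ratio of 7.95. Egr2 (ENSMUSG00000037868, chromosome 10, 67535475 to 67542188), a zinc finger factor, stood at 0.134, 0.641, 1.53 and 2.84 FPKM, from counts of 13, 59, 139 and 263. Npas4, a factor that responds to neuronal calcium entry, stood at 6.39, 19.3, 24.2 and 32.5 FPKM, a ratio of 5.12. In all 4 genes naive 1 was lowest, naive 4 was highest, and naive 2 and naive 3 lay between.

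Of the other members that varied at least 2-fold, all but Sik1, Nr4a2 and Nr4a3 were also lowest in naive 1 and highest in naive 4. The AP-1 genes Junb (14.5, 28.1, 30.1 and 57.2 FPKM) and Fosb (1.97, 3.63, 4.82 and 7.13 FPKM) had ratios of 3.98 and 3.64. The orphan nuclear receptor Nr4a1 stood at 24.7, 38.1, 42.7 and 80.4 FPKM. Btg2, an antiproliferative gene, had a ratio of 4.36, Ier2 3.95, the phosphatase gene Dusp1 3.58, Egr4 2.95 and Egr1 2.34, and all were lowest in naive 1 and highest in naive 4. Junb and Dusp1 each share exon bases with another gene model, and with its counts added their ratios were 1.42 and 1.27. Adding an abundant, even neighbour lowers a ratio too, so the sums cannot tell whether shared reads were exchanged. The part of shared reads in these 2 was not tested. The other members that varied at least 2-fold overlap no model. Sik1, a kinase gene induced by cyclic AMP, was high in naive 4 alone, at 2.10, 1.77, 2.27 and 5.26 FPKM. Cyr61, a matrix-associated early gene that was on no list, followed the same order at 2.46, 6.19, 8.501 and 21.3 CPM.

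Some members differed from this order. Of the 15 that varied at least 2-fold, Nr4a2 (7.18, 3.32, 3.96 and 3.18 FPKM) and Nr4a3 (2.20, 1.17, 0.995 and 1.21 FPKM) were highest in naive 1, opposite to their paralog Nr4a1. Nr4a2 is also a marker of deep-layer neurons. Egr3 (27.9, 35.1, 38.5 and 50.5 FPKM) stayed at a ratio of 1.82, Bdnf at 1.33 and Jund, which is expressed constitutively, at 1.28. In all, 26 of the 28 measured members were higher in naive 4 than in naive 1. Both end libraries carry the count: 9 members passed 2-fold without naive 1 and 9 without naive 4.

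The pattern of Fos over the 4 libraries was set beside that of all 11463 genes by the root mean square difference of centred log2 CPM. The nearest 4 genes were Arc (0.13), Cyr61 (0.21), Egr2 (0.31) and Npas4 (0.34), over 4 libraries only. This list was drawn up after the values were seen.

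Promoters of these genes are shown because the cyclic AMP response element, bound by the factor CREB, is the best known entry point of neuronal activity. Promoters of 25 of the 33 listed genes were in the RefSeq table (GRCm38.p6, the first start listed for each symbol, 300 bases from 250 before to 50 after the start). The core letters TGACG or their reverse complement CGTCA occurred in 17 of 25, against 21.02% of 27025 promoters. Among the 11 promoters of genes that varied at least 2-fold, 10 held them, all but that of Egr2. These include Junb and Dusp1, which each share exon bases with another gene model. The full palindrome TGACGTCA, which holds both and counts as 2 overlapping matches, occurred in 2 of 25 (Dusp1 and Btg2), against 1.88% of all. Sst, which is not on this list, holds the palindrome too and stood at 375 ± 25.4 FPKM, so the letters also occur where levels were even. A further motif that was searched, the CArG box, occurred in 0 of the 25 and in 1.57% of all promoters. A match is a string of letters and no sign of binding. The 180 bases before the RefSeq start are given 5′ to 3′ on the gene's strand, with matches in capitals.
Fos (chr12:85473710-85473889, + strand): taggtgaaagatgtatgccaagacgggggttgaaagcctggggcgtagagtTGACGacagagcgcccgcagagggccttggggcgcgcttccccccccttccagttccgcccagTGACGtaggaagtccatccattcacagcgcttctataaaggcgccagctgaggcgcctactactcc
Npas4 (chr19:4989972-4990151, - strand): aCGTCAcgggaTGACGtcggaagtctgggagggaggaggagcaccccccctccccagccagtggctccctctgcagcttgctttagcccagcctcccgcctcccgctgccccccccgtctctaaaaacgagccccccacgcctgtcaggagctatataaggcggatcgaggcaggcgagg
Junb (chr8:84978749-84978928, - strand): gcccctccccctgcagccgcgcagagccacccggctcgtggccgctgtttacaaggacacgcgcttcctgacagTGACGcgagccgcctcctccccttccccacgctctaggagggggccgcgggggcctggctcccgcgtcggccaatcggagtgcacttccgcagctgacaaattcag
Fosb (chr7:19310046-19310225, - strand): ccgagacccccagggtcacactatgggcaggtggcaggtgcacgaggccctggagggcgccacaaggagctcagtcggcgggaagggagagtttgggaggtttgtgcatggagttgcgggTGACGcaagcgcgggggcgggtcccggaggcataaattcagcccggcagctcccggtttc
Nr4a1 (chr15:101266666-101266845, + strand): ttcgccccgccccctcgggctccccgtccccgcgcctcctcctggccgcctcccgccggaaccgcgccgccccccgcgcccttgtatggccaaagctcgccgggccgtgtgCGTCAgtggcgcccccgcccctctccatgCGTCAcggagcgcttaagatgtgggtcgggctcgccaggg
Dusp1 (chr17:26508473-26508652, - strand): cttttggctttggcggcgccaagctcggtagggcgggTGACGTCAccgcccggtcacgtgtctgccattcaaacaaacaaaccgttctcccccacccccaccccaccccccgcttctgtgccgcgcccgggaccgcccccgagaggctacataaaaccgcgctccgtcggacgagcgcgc
Btg2 (chr1:134079156-134079335, - strand): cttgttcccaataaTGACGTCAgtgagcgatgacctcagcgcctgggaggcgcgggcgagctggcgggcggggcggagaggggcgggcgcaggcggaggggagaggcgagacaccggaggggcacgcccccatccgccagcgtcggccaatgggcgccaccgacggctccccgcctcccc
Egr4 (chr6:85513590-85513769, - strand): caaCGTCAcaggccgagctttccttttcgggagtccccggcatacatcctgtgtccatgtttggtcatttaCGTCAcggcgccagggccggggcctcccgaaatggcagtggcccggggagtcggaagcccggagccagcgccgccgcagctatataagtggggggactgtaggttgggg
Egr2 (chr10:67535319-67535498, + strand): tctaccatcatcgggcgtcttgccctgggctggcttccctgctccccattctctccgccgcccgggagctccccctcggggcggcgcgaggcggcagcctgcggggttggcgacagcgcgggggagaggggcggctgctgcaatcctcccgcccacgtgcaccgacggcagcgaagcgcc
In Fos the matches began 129 and 66 bases before the start, in Dusp1 143 and 140, and in Btg2 166 and 163. Egr2, the member with the largest ratio, had none in its 180 bases.

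The other state lists had few or no members past 2-fold (2.81% of all genes). None of 15 measured glucocorticoid response genes, 13 heat shock genes or 7 interferon genes reached it. The median ratio of highest to lowest library was 1.21 in the glucocorticoid, 1.15 in the heat shock and 1.17 in the interferon list, against 1.17 over all genes. Naive 4 was highest in 8 of 15 glucocorticoid and 8 of 18 clock genes (24.2% of all genes). It was highest in 4 of 13 heat shock, 3 of 7 interferon and 3 of 9 cytokine genes. Mt1 and Mt2, metallothionein genes that glucocorticoids raise, stood at 163 ± 12.7 and 80.0 ± 8.32 FPKM. Fkbp5, a cochaperone of the glucocorticoid receptor, stood at 2.32, 2.09, 2.29 and 2.28 FPKM. Of 18 clock genes, Tef alone passed, at 24.4, 22.7, 9.88 and 22.2 FPKM, and Nr1d1, which cycles over the day, stood at 46.5 ± 3.57 FPKM. Of 9 cytokine genes Il33 alone passed, at 6.12, 6.61, 6.11 and 2.88 FPKM. Of 23 listed cytokine and chemokine genes, 9 reached 1 FPKM, near the share over all genes (35.2%). The neuronal chemokine gene Cx3cl1 led them at 200.1 ± 16.2 FPKM, and 8 had means below 0.1 FPKM, among them Tnf, Il6 and Ccl2.

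Cell type lists moved by smaller amounts than the immediate early genes, and the highest and lowest libraries differed from list to list. Oligodendrocyte and myelin genes were lowest in naive 4 in 18 of 22 measured members (20.8% of all genes) and highest in naive 2 in 17 of 22 (23.8% of all genes). Their summed CPM was 3889, 4562, 4199 and 3524. Meningeal and fibroblast genes were highest in naive 4 in 5 of 6 measured members (24.2% of all genes), with sums of 146, 156, 160.0 and 190.3 CPM. Mural genes were highest there in 6 of 9, and upper-layer neuron genes in 7 of 12, with sums of 814, 770.0, 715 and 859 CPM. Deep-layer neuron genes were lowest in naive 4 in 8 of 14, with sums of 1001, 886, 989 and 904 CPM. Astrocyte genes were lowest in naive 3 in 14 of 20 measured members, microglial genes in 14 of 20 and endothelial genes in 13 of 18 (26.9% of all genes). The part of tissue makeup in the level of immediate early genes was not tested. Of the measured members 1 of 22 oligodendrocyte, 1 of 20 astrocyte and 2 of 20 microglial genes reached 2-fold (2.81% of all genes). The median ratio was 1.31 in the oligodendrocyte, 1.27 in the microglial and 1.16 in the astrocyte list, against 1.17 over all genes and 2.22 in the immediate early genes.

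**Figure D5:**
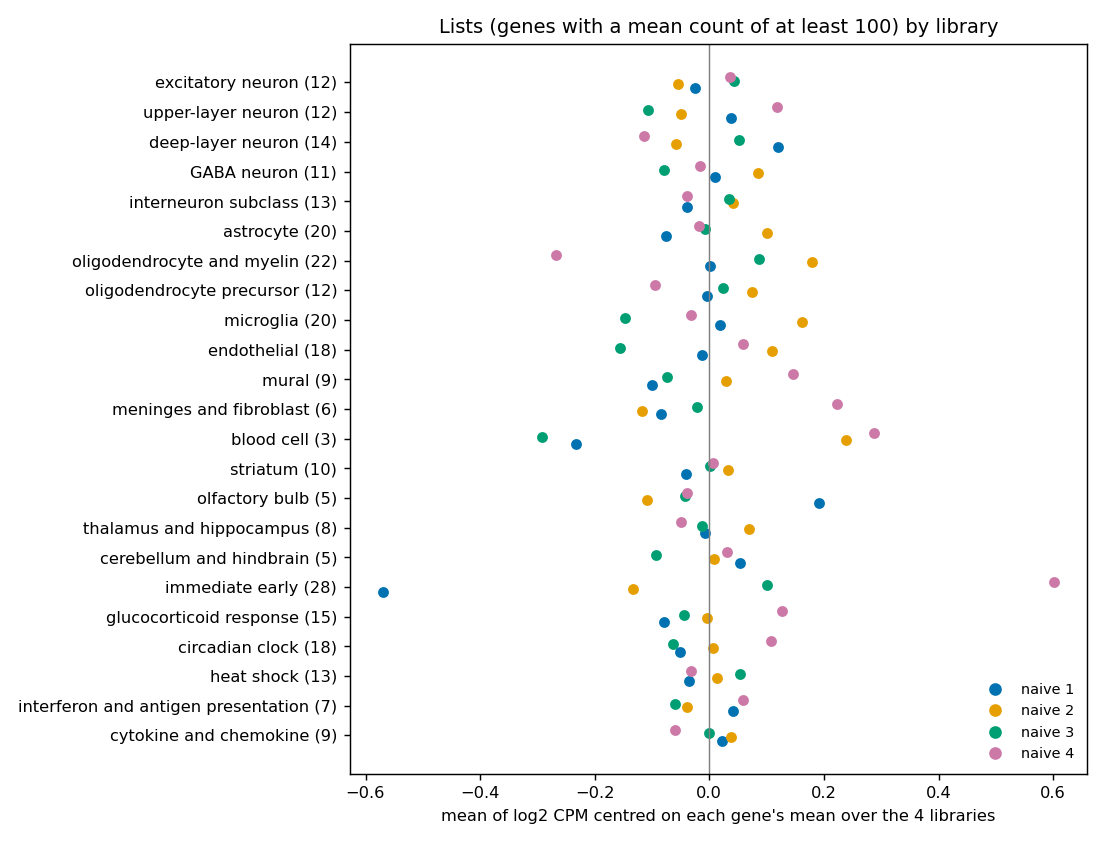
Mean log2 difference in CPM of a list's measured genes from their own average over the 4 libraries (horizontal axis), for cell type and state lists (vertical axis, with the number of genes). Immediate early genes run from -0.57 in naive 1 to 0.60 in naive 4, and oligodendrocyte genes from -0.27 in naive 4 to 0.18 in naive 2.

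A last group varied gene by gene, with no list behind it. Of the 322 genes that varied at least 2-fold, 108 share exon bases with another gene model, and 55 fell below 2-fold once the counts of all models that overlap them were added, a step chosen after the data were seen. The clustered gamma protocadherins are the plainest case. Their models share the same 3′ exons, so reads there fit any of them. Pcdhgb8 stood at 269, 1.06, 327 and 25.3 CPM, Pcdhga1 at 77.1, 294, 11.8 and 7.87 CPM and Pcdhga9 at 11.8, 28.9, 36.2 and 361.5 CPM. Each model peaked in another library, and the sum over the overlapping models differed by 1.01 times. Ackr1, a chemokine-binding receptor of vessels, stood at 1.28, 44.4, 1.44 and 1.23 CPM, and together with its overlapping neighbour Cadm3 the ratio fell from 36.0 to 1.41. For Ube2v1, which shares exons with Gm20431, it fell from 6.16 to 1.16. The levels of these protocadherins and of Ube2v1 are those of the authors' assignment of shared reads and cannot be read as levels of single genes. Cadm3 stood at 479, 305, 486 and 492 CPM, a fall in naive 2 larger than the rise of Ackr1. The part of shared reads in the level of Ackr1 was not tested.

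In other genes no overlapping model takes up the difference. Slc1a2 (ENSMUSG00000005089, chromosome 2, 102658659 to 102790784), which encodes GLT-1, the main glutamate uptake carrier of astrocytes, stood at 317, 510, 2502 and 339 CPM, from counts of 5680, 8657, 41796 and 5772. Naive 3 stood 7.89 times above naive 1. Slc1a3, the other astrocytic carrier, was even at 49.2, 49.5, 44.2 and 47.6 FPKM, and most astrocyte genes were lowest in naive 3. Without naive 3 the ratio of Slc1a2 was 1.61. Kcna2 (ENSMUSG00000040724, chromosome 3, 107101146 to 107115005), a Kv1 potassium channel of axons, had a count of 33 in naive 1 and 4968, 5302 and 4882 in the others, a ratio of 172. Without naive 1 the ratio was 1.11.

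Similar single-library departures were found in genes of several roles. Camk2g was low in naive 1 (40.2 against 80.2 to 88.2 FPKM), where Camk2b was high (53.4 against 28.0 to 30.6 FPKM). Tspan2, a myelin tetraspanin, was low in naive 4 (3.48 against 16.9 to 18.2 FPKM), and Scn1a, the sodium channel of fast-spiking interneurons, was low there too (3.10 against 6.20 to 6.55 FPKM). Ywhah, a 14-3-3 gene, was high in naive 4 at 187 FPKM against 79.7 to 86.5 FPKM. Nfe2l1, a transcription factor of proteasome genes, stood at 416 CPM in naive 4 against 80.0 to 106 CPM. Kcnd3, a Kv4 channel gene, was high in naive 1 at 81.8 CPM against 12.04 to 14.8 CPM, and Tmem127 in naive 3 at 123 CPM against 13.9 to 17.6 CPM. Sap18, a histone deacetylase complex subunit, stood at 32.3 CPM in naive 1 against 2.53 to 2.93 CPM. Other genes split the libraries in pairs: Zfp62 stood at 35.8, 4.60, 34.1 and 5.64 CPM and Helz at 9.04, 60.4, 59.5 and 11.8 CPM. Hnrnpa3, which has processed copies, stood at 17.7, 2.48, 51.6 and 53.3 CPM. The cause was not tested.

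At the other end stood genes that hardly differed. Among 3908 genes with a mean count of at least 1000, the lowest CVs, chosen after the values were seen, belonged to Tpt1-ps3 (0.272%), Arhgef3 (0.364%) and Stmn4 (0.416%). Genes in common use as references had CVs of 1.75% (Tbp), 2.82% (Ywhaz), 2.86% (Actb), 3.05% (Sdha), 4.79% (B2m), 5.34% (Pgk1), 6.21% (Gapdh), 7.40% (Hprt), 8.11% (Gusb), 9.41% (Rplp0) and 12.4% (Ppia). Of these, Tbp stood at 1.68 ± 0.0322 FPKM and Actb at 81.8 ± 2.46 FPKM. Slc17a7, with a ratio of 1.02, and Rgs5, with 1.02, were about as even.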

How the data were processed

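RNA from mPFC tissue of 4 naive mice or pools was sequenced as an mRNA library per sample, per the labels' protocols. The authors deposited read counts per gene and FPKM values in 1 table. HISAT2 2.0.4 is named in the submitters' processing notes, and the labels give GRCm38/mm10. Neither the counting program nor the gene lengths behind FPKM were stated in the labels. FPKM was used as deposited for levels. CPM was computed from the deposited counts with TMM factors of edgeR 4.0.16, and DESeq2 1.42.0 size factors served as an alternative. Ratios between libraries were taken for genes with a mean count of at least 100. With 1 group there was no test. Merged exon lengths came from GENCODE M21, matched by Ensembl ID for 34344 genes. The ratio step was tested on simulated data.

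Members, gene lists and families were chosen with earlier results of these data known. Named genes were the 20 highest nuclear, 5 mitochondrial and 5 ribosomal genes, the 25 most variable, the 3 highest of each list or family, its members that varied at least 2-fold and those below 0.1 FPKM, and a short set of markers. Some members of these lists are not reported here.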

Additional observations from a re-analysis of the deposited data

Results flagged for a closer look

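In 21 of 98 values examined, 1 of the 4 naive libraries stood apart from the other 3. The gap to its nearest neighbour, divided by the whole range, was above 0.829. Chance gives such a gap in about 1 group in 20, and many of these genes were named because they varied. Values are CPM.

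Naive 1 stood high in Zfp12 (39.3 against 9.28 to 9.52, gap over range 0.992), Sap18 (32.3 against 2.53 to 2.93, 0.986), Kcnd3 (81.8 against 12.04 to 14.8, 0.961), Pcdhgb5 (24.0 against 3.89 to 5.60, 0.915) and Phc3 (61.7 against 7.99 to 13.9, 0.889). It stood low in the potassium channel gene Kcna2 (1.84 against 287 to 317, 0.903) and in Camk2g (148 against 297 to 328, 0.830).

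Naive 2 stood high in Pcdhgb2 (81.3 against 9.76 to 10.04, 0.996) and Ackr1 (44.4 against 1.23 to 1.44, 0.995), both of which share exons with other models. Naive 2 stood low in Fkbp5 (23.3 against 25.4 to 25.7, 0.880), a gap of small size. Pcdhgb5 and Pcdhga9, flagged in other libraries, share exons too, and their ratios fell to 1.01 with overlapping models summed. Sap18, Kcnd3, Slc1a2, Tef and Tspan2 also share exons but stayed above 2-fold when summed.

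Naive 3 stood high in Tmem127 (123 against 13.9 to 17.6, 0.966), Kpna1 (173 against 42.7 to 51.5, 0.933) and the glutamate carrier gene Slc1a2 (2502 against 317 to 510, 0.911). It stood low in the clock-related gene Tef (132 against 296 to 323, 0.858).

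Naive 4 stood high in Ywhah (997 against 425 to 463, 0.934), Pcdhga9 (361.5 against 11.8 to 36.2, 0.930), Nfe2l1 (416 against 80.0 to 106, 0.924) and Sik1 (23.8 against 7.96 to 10.3, 0.852). It stood low in Scn1a (76.2 against 153 to 160.1, 0.912), Tspan2 (18.6 against 90.0 to 97.2, 0.908) and Il33 (15.2 against 32.0 to 34.7, 0.859).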

How the results depend on the processing

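Depth limited genes of low count: 702 genes varied at least 2-fold at a mean count of at least 20, and 154 at 500. An edgeR biological coefficient of variation of at least 0.3 was reached by 168 genes. Leaving out a library gave 212 to 253 genes, the lowest without naive 1. Summing models that share exon bases, added after the data were seen, left 267. For immediate early genes the count of 15 became 8 at a mean count of 500 and 9 to 16 without a library, with 9 without naive 1 and 9 without naive 4. DESeq2 size factors moved neither count. A threshold of 5 FPKM left 6691 genes, TPM gave 15079 at 1, and leaving out a library gave 12199 to 12240. By FPKM, 216 genes held 50% of the total in place of 959 (955 to 961 without a library). The mitochondrial share was 7.47 to 7.91% without a library. The leading paralog was kept in 63 to 64 of 65 families without a library. The order of 19 list medians (18 marker lists and the sex check) kept 12 to 19 places without a library, 12 of them without naive 4. It kept 5 with only members at 1 FPKM or more and 7 on merged exon length, so neighbouring lists have no firm order. No paired analysis was possible because a single group was described. Of the values of single genes, 1937 moved by less than the limit set and 99 by more. The cause was not tested.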
